A study of Mus musculus with 18 samples.

Results

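In Dnmt3-sufficient mice, B cells of the germinal center (GCB) were compared with plasma cells of the bone marrow (BMPC). The values below describe how transcript levels differed between these 2 sorted cell populations. The libraries were chosen by their labels: all 3 GCB and all 3 BMPC libraries from Dnmt3-sufficient mice, 6 of the 18 RNA-seq libraries of the series. By label, GCB 1 and GCB 2 were female and GCB 3 was male, whereas BMPC 1 and BMPC 3 were male and BMPC 2 was female. Both groups came from mice of the genotype Dnmt3a fl/fl, Dnmt3b fl/fl, in which both methyltransferase genes carry loxP sites but no Cre is present, aged 8 to 12 weeks, on the background labelled B6;129S4-Dnmt3atm3.1Enl Dnmt3btm5.1Enl/Mmnc. All mice had been immunized 30 days earlier with phycoerythrin (PE), a fluorescent protein antigen, in complete Freund's adjuvant. GCB were B220+ Fas+ GL7+ cells of the inguinal and periaortic lymph nodes that bound PE, and each library pooled 2 mice. BMPC were CD138+ cells of the bone marrow from 1 mouse per library, and they were not selected for PE binding. The Dnmt3-deficient mice set beside them in 1 comparison were littermates that carried, in addition, 1 Cre allele active in B-lineage cells from an early stage. Naive B cells (nB) of unimmunized Dnmt3-sufficient mice serve as a further point of reference. Cell type and organ differ together in this design (lymph node against bone marrow), so differences between the cell types and differences between the organs cannot be told apart.

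A germinal center is the site in a lymph node where activated B cells divide rapidly, mutate their antibody genes and compete for antigen and T cell help. The transcription factor Bcl6 holds that program in place, whereas Blimp-1 (Prdm1), Irf4 and Xbp1 drive the plasma cell program, in which the cell leaves the cell cycle, gives up B cell receptor signaling and antigen presentation, and expands its endoplasmic reticulum (ER) to secrete antibody. Long-lived plasma cells lodge in bone marrow niches and depend there on survival signals such as those received by BCMA (Tnfrsf17).

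Promoter sequences are shown first for 6 genes of the programs described below, because short motifs recurred in the promoters of several of the gene lists. The genes were picked after the motif matches and expression values had been seen, as examples of a motif in a gene of its list. The windows run from 250 bases before to 50 bases after the start site and come from RefSeq on build GRCm38.p6, a different build from that of the expression table (mm9), and each is written 5′ to 3′ in the direction of the gene. Hsp90b1 (chr10:86705395-86705694, minus strand) and Hspa5 (chr2:34771840-34772139, plus strand) encode ER chaperones, and capitals mark the ER stress element, which is CCAAT, then 9 bases of any kind, then CCACG, on either strand.
Hsp90b1: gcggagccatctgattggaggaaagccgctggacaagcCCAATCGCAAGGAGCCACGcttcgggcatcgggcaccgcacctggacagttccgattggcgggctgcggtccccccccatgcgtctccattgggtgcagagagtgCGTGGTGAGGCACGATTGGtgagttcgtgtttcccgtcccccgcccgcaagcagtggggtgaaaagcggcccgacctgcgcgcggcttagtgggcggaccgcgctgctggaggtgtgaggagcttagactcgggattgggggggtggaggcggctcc
Hspa5: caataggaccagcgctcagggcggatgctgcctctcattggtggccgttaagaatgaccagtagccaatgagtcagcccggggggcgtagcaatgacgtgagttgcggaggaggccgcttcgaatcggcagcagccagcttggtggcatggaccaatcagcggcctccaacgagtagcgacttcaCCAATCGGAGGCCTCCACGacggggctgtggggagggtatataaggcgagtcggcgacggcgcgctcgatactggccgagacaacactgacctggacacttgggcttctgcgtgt
Mki67 (chr7:135716330-135716629, minus strand) encodes the proliferation antigen Ki-67, and capitals mark the CHR element TTTGAA and the CCAAT box CCAAT on either strand.
Mki67: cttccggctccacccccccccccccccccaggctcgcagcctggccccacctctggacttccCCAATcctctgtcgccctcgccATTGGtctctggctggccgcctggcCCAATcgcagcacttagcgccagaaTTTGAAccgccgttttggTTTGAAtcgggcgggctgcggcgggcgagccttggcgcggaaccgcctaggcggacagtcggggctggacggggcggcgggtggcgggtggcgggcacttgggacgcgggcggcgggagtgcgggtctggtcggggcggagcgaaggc
Mcm3 (chr1:20820263-20820562, minus strand) encodes a subunit of the replicative helicase, and capitals mark the E2F motifs TTTCCCGC (here on the opposite strand) and TTTGGCGC.
Mcm3: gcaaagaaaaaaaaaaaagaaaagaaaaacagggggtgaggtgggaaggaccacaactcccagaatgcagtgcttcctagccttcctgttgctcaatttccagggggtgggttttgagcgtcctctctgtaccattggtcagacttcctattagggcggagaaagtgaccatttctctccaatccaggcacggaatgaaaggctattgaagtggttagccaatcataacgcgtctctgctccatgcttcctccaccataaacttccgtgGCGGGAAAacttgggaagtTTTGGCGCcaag
Pycr1 (chr11:120643699-120643998, minus strand) encodes the last enzyme of proline synthesis, Tars (chr15:11399609-11399908, minus strand) encodes threonyl-tRNA synthetase, and capitals mark the amino acid response motif TGATGCAA, which lies on the opposite strand in Tars.
Pycr1: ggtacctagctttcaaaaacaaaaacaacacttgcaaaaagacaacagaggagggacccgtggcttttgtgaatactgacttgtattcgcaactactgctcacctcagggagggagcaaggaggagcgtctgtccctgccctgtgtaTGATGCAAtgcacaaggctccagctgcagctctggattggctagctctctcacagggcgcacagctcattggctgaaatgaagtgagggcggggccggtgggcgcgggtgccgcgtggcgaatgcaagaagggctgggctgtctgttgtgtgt
Tars: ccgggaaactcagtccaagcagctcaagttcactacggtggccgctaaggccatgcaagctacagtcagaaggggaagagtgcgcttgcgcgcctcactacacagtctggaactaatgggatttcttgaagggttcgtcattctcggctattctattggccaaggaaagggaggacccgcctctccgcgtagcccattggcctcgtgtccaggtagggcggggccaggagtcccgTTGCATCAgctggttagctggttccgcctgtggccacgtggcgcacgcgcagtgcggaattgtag
A match is a run of letters and no evidence of binding, and the windows of a gene with several start sites were counted separately.

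Expression was read as FPKM, a read count scaled to exon length and library depth, and tested after adding 1 and taking log2, so that fold changes of weakly expressed genes come out too small. Of 21761 genes in the table, 9875 exceeded 1 FPKM in at least 2 of the 6 libraries and were tested with limma, and a gene was called when its Benjamini-Hochberg adjusted p was at most 0.05 and its change at least 1 on that scale. In BMPC, 640 genes were called higher (6.48% of those tested) and 1950 lower (19.7%). All 2590 called genes had the 3 libraries of one cell type beyond the 3 of the other, compared with 12.7% of tested genes lying apart with higher values in BMPC and 34.6% lying apart with lower values. The median change over all tested genes was -0.75 in log2(FPKM + 1), and scaling by the median of ratios between libraries shifted it by 0.20 to -0.55 and moved the share of calls that were lower from 75.29% to 66.19%. The lists below are read against these figures and not against 0.

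The sequencing depth differed with the cell type. The 3 GCB libraries held 7644544 to 8903872 reads and the 3 BMPC libraries held 2196198 to 3803197, as recovered from the FPKM and exon lengths. For a gene with 2 kb of exon, 1 read was worth 0.0562 to 0.0654 FPKM in GCB and 0.132 to 0.228 FPKM in BMPC. Among tested genes, 32.72% were at 0 in 1 or 2 of the 3 BMPC libraries against 4.466% in GCB, and the median standard deviation over genes was 0.27 in GCB and 0.89 in BMPC on the log2(FPKM + 1) scale. A gene with scattered values in BMPC could therefore miss the threshold although its means lay far apart. The p-values measure the spread between libraries, and the lower bounds given for genes at 0, taken at 3 reads per library, cover counting error only. In these bulk samples a higher share of cells of one type and more RNA per cell cannot be told apart.

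**Figure D1:**
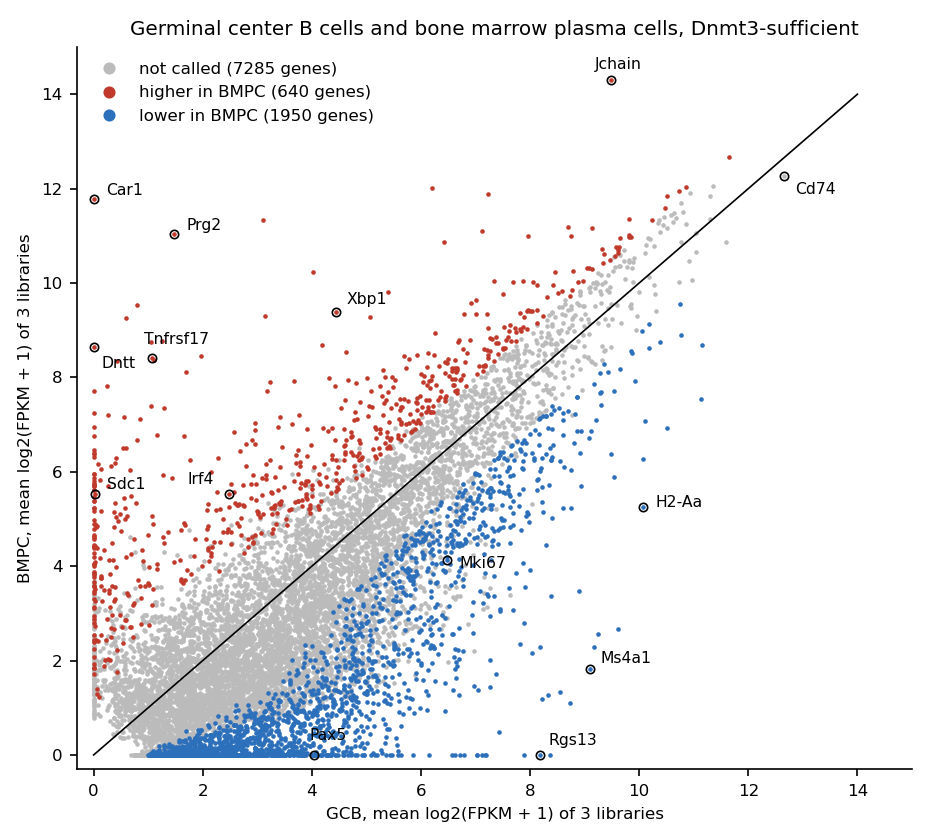
Mean log2(FPKM + 1) of the 3 GCB libraries (horizontal axis) against that of the 3 BMPC libraries (vertical axis) for the 9875 tested genes, 1 point per gene, coloured by call, with a line of equality. The 640 genes called higher lie above the line and the 1950 called lower lie below it, and Car1 lies on the left edge because it was at 0 in all 3 GCB libraries.

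The labelled cell types were checked against 3 markers. Xbp1 (chromosome 11, 5420662 to 5425896 on mm9), the transcription factor that expands the secretory apparatus, had FPKM of 15.8, 20.3 and 27.4 in GCB 1 to 3 and 716, 738 and 559.5 in BMPC 1 to 3. It rose 31.7-fold (log2 difference 4.95 ± 0.25 SE, adjusted p = 0.000184, n = 3 and 3). Sdc1 (chromosome 12, 8778129 to 8800521), which encodes the sort marker CD138, was at 0, 0 and 0.0387 FPKM in GCB and at 40.1, 65.0 and 35.9 in BMPC (log2 difference 5.52 ± 0.49, adjusted p = 0.000998). Mki67 (chromosome 7, 142881471 to 142908062) stood at 82.5, 101 and 82.5 FPKM in GCB and fell to 12.4, 18.4 and 19.8 in BMPC, a 5.27-fold difference (log2 difference -2.35 ± 0.31, adjusted p = 0.00281). The groups did not overlap for any of the 3 markers. Mki67 was at or below 0.0445 FPKM in the 3 nB libraries, so BMPC lay between nB and GCB for this gene.

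**Figure D2:**
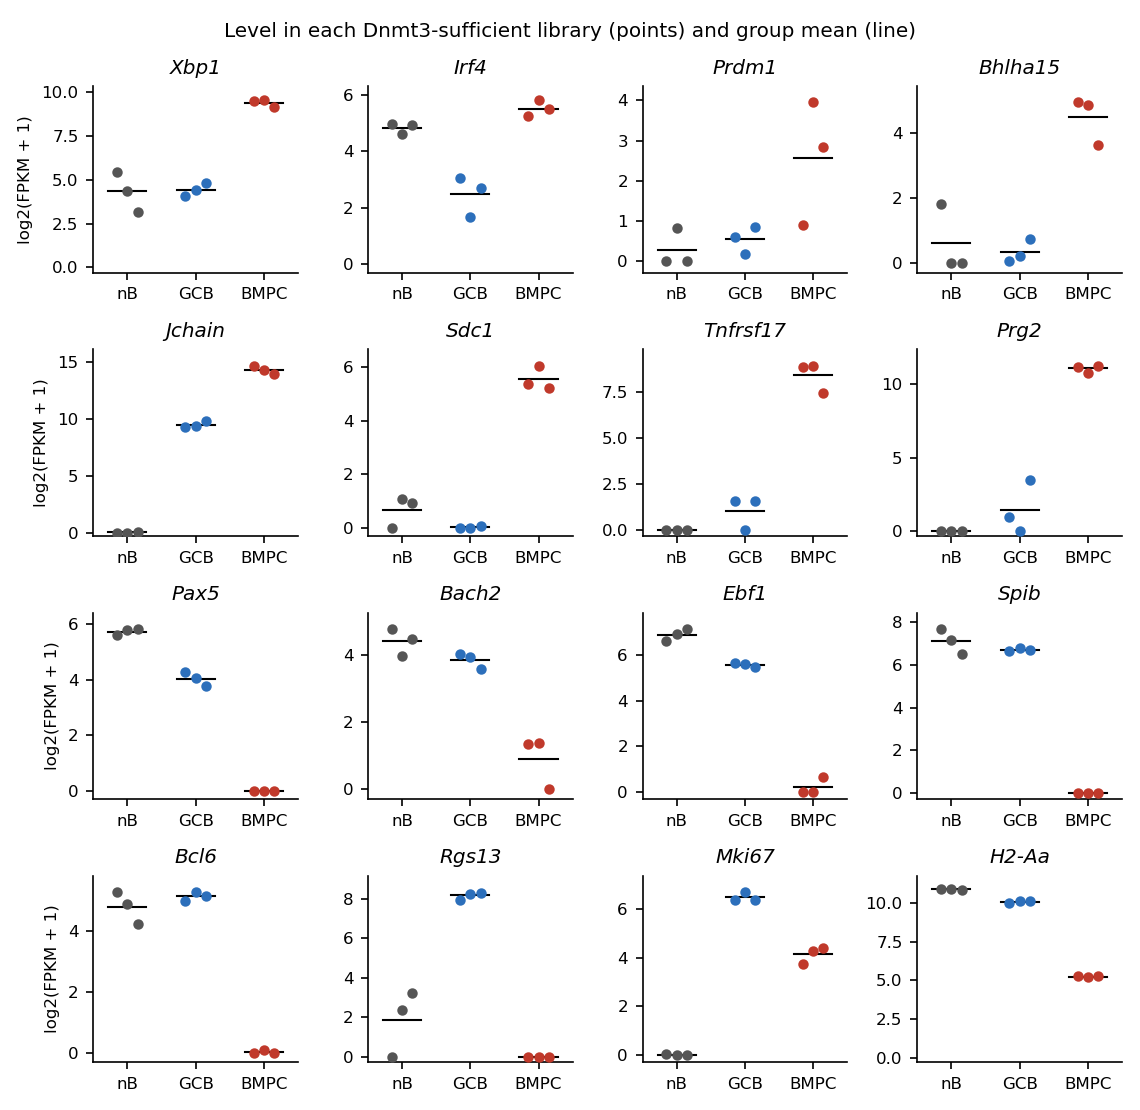
Level of 16 genes, log2(FPKM + 1) on the vertical axis, in each Dnmt3-sufficient nB, GCB and BMPC library (points), with a line at the group mean of 3 libraries. Xbp1, Sdc1 and Jchain are highest in BMPC, Mki67, Rgs13 and Bcl6 stand higher in GCB than in BMPC, and the lowest Prdm1 point of BMPC lies close to those of GCB.

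The regulators of the plasma cell program differed in how far they separated the cell types. Of the 10 listed plasma cell transcription factors, 4 rose and none fell, and the median log2 difference was 1.84. Bhlha15 (Mist1), a basic helix-loop-helix factor of secretory cells, was at 0.0321, 0.150 and 0.676 FPKM in GCB and at 30.0, 28.3 and 11.6 in BMPC (log2 difference 4.16 ± 0.58, adjusted p = 0.00347). Irf4, which is needed at several steps of plasma cell formation, was at 7.36, 2.18 and 5.47 FPKM in GCB and at 37.3, 55.2 and 44.1 in BMPC (9.1-fold, log2 difference 3.05 ± 0.50, adjusted p = 0.0056). Irf4 in nB was at 23.4 to 30.3 FPKM, so the GCB libraries were the lowest of the 3 cell types. Creb3l2, an ER-bound factor related to Atf6, was at 0.339, 0.432 and 0.933 FPKM in GCB and at 7.19, 17.0 and 6.73 in BMPC (log2 difference 2.76 ± 0.54, adjusted p = 0.0111), a call that was lost without GCB 1 (adjusted p = 0.0748) or without GCB 2 (adjusted p = 0.0696).

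Prdm1, the gene of Blimp-1, did not pass the test in this comparison. Its FPKM was 0.517, 0.120 and 0.783 in GCB and 0.838, 14.5 and 6.14 in BMPC (log2 difference 2.02 ± 0.80, adjusted p = 0.106). The BMPC libraries were all above the GCB libraries, but BMPC 1 lay next to them, and without it the gene was called (adjusted p = 0.0121). Ell2, an elongation factor that favors secreted immunoglobulin transcripts, was at 5.01, 6.39 and 9.42 FPKM in GCB and at 31.3, 34.7 and 11.6 in BMPC (adjusted p = 0.0672) and was called without BMPC 3 (adjusted p = 0.0133). The ER stress sensor Atf6 had 6.49 to 7.52 FPKM in GCB and 7.998 to 16.2 in BMPC (adjusted p = 0.265), its relative Atf6b had 11.0 to 18.1 and 3.70 to 14.4 (adjusted p = 0.36), and neither was called. Mef2d ranged from 0 to 22.9 FPKM across the 3 BMPC libraries and Zbtb20 from 1.29 to 9.63, and without BMPC 3 both were called lower (adjusted p = 0.00474 and 0.0101).

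Surface and secretory genes of plasma cells rose broadly. Of 18 genes, 14 rose and none fell, and the median log2 difference was 4.36. Tnfrsf17, the gene of the survival receptor BCMA, was at 2.08, 0 and 2.04 FPKM in GCB and at 465, 482 and 173 in BMPC (272-fold, log2 difference 7.33 ± 0.63, adjusted p = 0.000846). Jchain, which joins the units of polymeric IgM and IgA, was at 609.5, 687 and 882 FPKM in GCB and at 25610, 20150 and 16190 in BMPC (28.4-fold, log2 difference 4.82 ± 0.19, adjusted p = 0.000159). In nB, Jchain did not exceed 0.0529 FPKM, so its transcript was already abundant in GCB. Prg2, named for the eosinophil major basic protein, was at 0.938, 0 and 10.2 FPKM in GCB and at 2280, 1724 and 2326 in BMPC (log2 difference 9.55 ± 0.83, adjusted p = 0.000895). The 5 listed genes of basophils, mast cells and eosinophils together held 5.42e-05%, 0% and 0.00926% of the summed FPKM in BMPC 1 to 3, and none of the 5 passed the filter on low values. The part of such cells in the rise of Prg2 was not tested.

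Fkbp11, a prolyl isomerase of the ER, was at 0, 5.48 and 4.30 FPKM in GCB and at 329, 312 and 207 in BMPC (86.7-fold, log2 difference 6.42 ± 0.74, adjusted p = 0.00202). Ly6c2, a surface protein of the Ly6 family, was at 7.71, 12.2 and 35.99 FPKM in GCB and at 1516, 1162 and 976 in BMPC (65.3-fold, log2 difference 6.21 ± 0.52, adjusted p = 0.000774), with the reservation that reads may be shared with close relatives of the same family. Slamf7, a surface receptor of plasma cells, was at 80.6, 82.2 and 88.4 FPKM in GCB and at 196, 157 and 123 in BMPC. Its groups did not overlap and its adjusted p was 0.0268, but the log2 difference of 0.89 ± 0.22 was under the minimum change, which it passed without BMPC 3 (1.06) and with scaling by the median of ratios (1.15). Eaf2, another elongation factor, overlapped between the groups (109 to 139 FPKM in GCB, 77.2 to 134 in BMPC, adjusted p = 0.344). The chemokine receptor gene Cxcr4 was likewise not called (19.4 to 20.8 FPKM in GCB, 15.8 to 32.0 in BMPC, adjusted p = 0.744).

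The chaperones, stress response and degradation genes of the ER moved upward as a list, with exceptions among its best known members. Of 34 genes, 14 rose and 2 fell, with a median log2 difference of 1.29 against -0.75 over all tested genes. Dnajb9, a cochaperone of BiP, was at 11.9, 7.79 and 5.20 FPKM in GCB and at 87.7, 53.0 and 38.0 in BMPC (log2 difference 2.68 ± 0.48, adjusted p = 0.00756). Edem2, which trims mannose from misfolded glycoproteins, was at 42.4, 24.7 and 48.0 FPKM in GCB and at 221, 306 and 166 in BMPC (log2 difference 2.57 ± 0.35, adjusted p = 0.00305). Pdia4, a disulfide isomerase, was at 65.3, 52.1 and 64.0 FPKM in GCB and at 360.1, 417 and 302 in BMPC (5.95-fold, log2 difference 2.55 ± 0.20, adjusted p = 0.000592). These 3 genes had no overlap between the groups. For Pdia4 the order of the cell types was GCB below nB (154 to 227 FPKM) and nB below BMPC.

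Among the chaperones whose promoters are printed above, Hsp90b1 (Grp94) was at 114, 124 and 147 FPKM in GCB and at 810, 548 and 608 in BMPC (5.11-fold, log2 difference 2.33 ± 0.19, adjusted p = 0.00068). Hspa5, the gene of the chaperone BiP, was at 422, 452 and 442 FPKM in GCB and at 819, 582 and 503 in BMPC. Its groups did not overlap, but the log2 difference of 0.50 ± 0.18 missed both thresholds (adjusted p = 0.0856). Calr, the gene of calreticulin, was at 193 to 208 FPKM in GCB and at 196 to 305 in BMPC (adjusted p = 0.383). The fall of Ppp1r15a (Gadd34), a phosphatase subunit that restores translation after stress, was from 61.7, 80.2 and 72.5 FPKM in GCB to 4.65, 8.96 and 3.47 in BMPC (12.6-fold lower, log2 difference -3.51 ± 0.42, adjusted p = 0.00231). Syvn1 (Hrd1), the ubiquitin ligase of ER-associated degradation, fell from 39.2, 47.2 and 44.9 to 10.9, 19.0 and 7.41 FPKM (log2 difference -1.83 ± 0.42, adjusted p = 0.0194), a call lost without any single GCB library (adjusted p 0.0704 to 0.0848).

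The ER stress element occurred in 9 of the 31 promoter windows found for 30 of these 34 genes (29.03%), against 0.119% of all 32851 windows. Among the windows of tested genes its share was 0.160%. It was present in 5 of the 639 windows of genes called higher (0.783%) and in 2 of the 1977 windows of genes called lower (0.101%). These few windows include those of the called carriers of this list named below, so they are no separate observation. The element contains a CCAAT box, and a CCAAT box alone was present in 80.65% of the list's windows against 37.41% of all. Of the 9 genes of the list carrying the element, 4 rose (Hsp90b1, Canx, Creld2 and Dnajc3), 4 were not called (Hspa5, Calr, Pdia6 and Ero1lb) and 1, Syvn1, fell. In Hsp90b1 the element began 212 bases before the start site on the strand of the gene, with another match beginning 107 bases before it on the opposite strand, and in Hspa5 it began 65 bases before the start site.

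Genes for entry into the ER, glycosylation and vesicle coats rose in a similar proportion. Of 49 genes, 22 rose and 1 fell, with a median log2 difference of 1.06. Ssr4, a subunit of the translocon-associated complex, was at 116, 128 and 176 FPKM in GCB and at 2898, 2002 and 1843 in BMPC (16.1-fold, log2 difference 3.99 ± 0.22, adjusted p = 0.000194). Sec11c, a catalytic subunit of signal peptidase, was at 222, 269.6 and 251 FPKM in GCB and at 2299, 2221 and 1699 in BMPC (8.37-fold, log2 difference 3.05 ± 0.14, adjusted p = 0.000159). Spcs1, another subunit of signal peptidase, was at 109, 114 and 136 FPKM in GCB and at 875, 781 and 639 in BMPC (6.39-fold, log2 difference 2.66 ± 0.17, adjusted p = 0.000287). Kdelr1, the receptor that returns escaped ER proteins, was at 6.04, 9.09 and 5.11 FPKM in GCB and at 41.2, 56.9 and 94.0 in BMPC (9.49-fold, log2 difference 3.02 ± 0.45, adjusted p = 0.00412). In all 4 genes the lowest BMPC library was above the highest GCB library.

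Among members that did not rise, Copb2, a subunit of the COPI coat, fell from 93.3, 100 and 92.1 FPKM in GCB to 22, 15.03 and 34.4 in BMPC (3.995-fold lower, log2 difference -2.03 ± 0.35, adjusted p = 0.00682). Sec13, of the COPII coat, was at 245 to 258 FPKM in GCB and 184 to 306 in BMPC and was not called (adjusted p = 0.979). Cope, another COPI subunit, was at 140.3, 143 and 159.7 FPKM in GCB and at 288, 239 and 287 in BMPC. Its adjusted p was 0.00746, but its log2 difference of 0.87 ± 0.15 was under the minimum change, which it passed with scaling by the median of ratios (1.13). The UPR element core TGACGTGG was present in 9.756% of the 41 promoter windows found for 38 genes of this list, against 0.676% of all windows. Its carriers were Copb2, which fell, and Copb1, Sec23a and Sec24d, which were not called, so no carrier in this list rose. Over all genes called higher, the motif was present in 0.626% of windows, against 0.878% of the windows of tested genes.

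Amino acid supply and tRNA charging, on which translation draws, did not rise as a list. Of 33 tested genes, 3 rose and 8 fell, with a median log2 difference of -0.96, close to the -0.75 of all tested genes. Pycr1 was at 3.22, 2.83 and 3.58 FPKM in GCB and at 22.9, 58.1 and 33.8 in BMPC (11.9-fold, log2 difference 3.13 ± 0.49, adjusted p = 0.005). Asns, the gene of asparagine synthetase, was at 70.8, 50.4 and 69.8 FPKM in GCB and at 216, 273 and 324 in BMPC (4.25-fold, log2 difference 2.07 ± 0.24, adjusted p = 0.00202). In nB it was listed at 0 in all 3 libraries. Slc3a2, the heavy chain of several amino acid transporters, was at 27.9, 29.1 and 25.3 FPKM in GCB and at 151, 71.5 and 45.5 in BMPC (adjusted p = 0.0493), and it was not called without any single GCB library (adjusted p 0.127 to 0.142) or without BMPC 2 (adjusted p = 0.0692).

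Of the genes that fell, Tars went from 64.1, 73.7 and 79.1 FPKM in GCB to 30.2, 27.9 and 49.96 in BMPC (log2 difference -1.03 ± 0.31, adjusted p = 0.0488). Mthfd2, a mitochondrial one-carbon enzyme, went from 148, 143 and 141 FPKM to 1.76, 44.97 and 23.0 (adjusted p = 0.0445), and its call was lost without any single GCB library (adjusted p 0.13 to 0.141) or without BMPC 3 (adjusted p = 0.0574). Phgdh, which opens serine synthesis, was not called (219.8 to 235 FPKM in GCB, 97.0 to 251 in BMPC, adjusted p = 0.332). The number of genes of this list called lower rested on the scaling and on single libraries: it was 2 under the median of ratios, 0 without GCB 1, 2 without GCB 2 or GCB 3, and 12 without BMPC 2. The motif TGATGCAA was present in 24% of the 25 promoter windows found for 24 genes of the list, against 0.895% of all windows. Of its carriers in the list, Pycr1 rose, Tars fell and the others were not called.

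**Figure D3:**
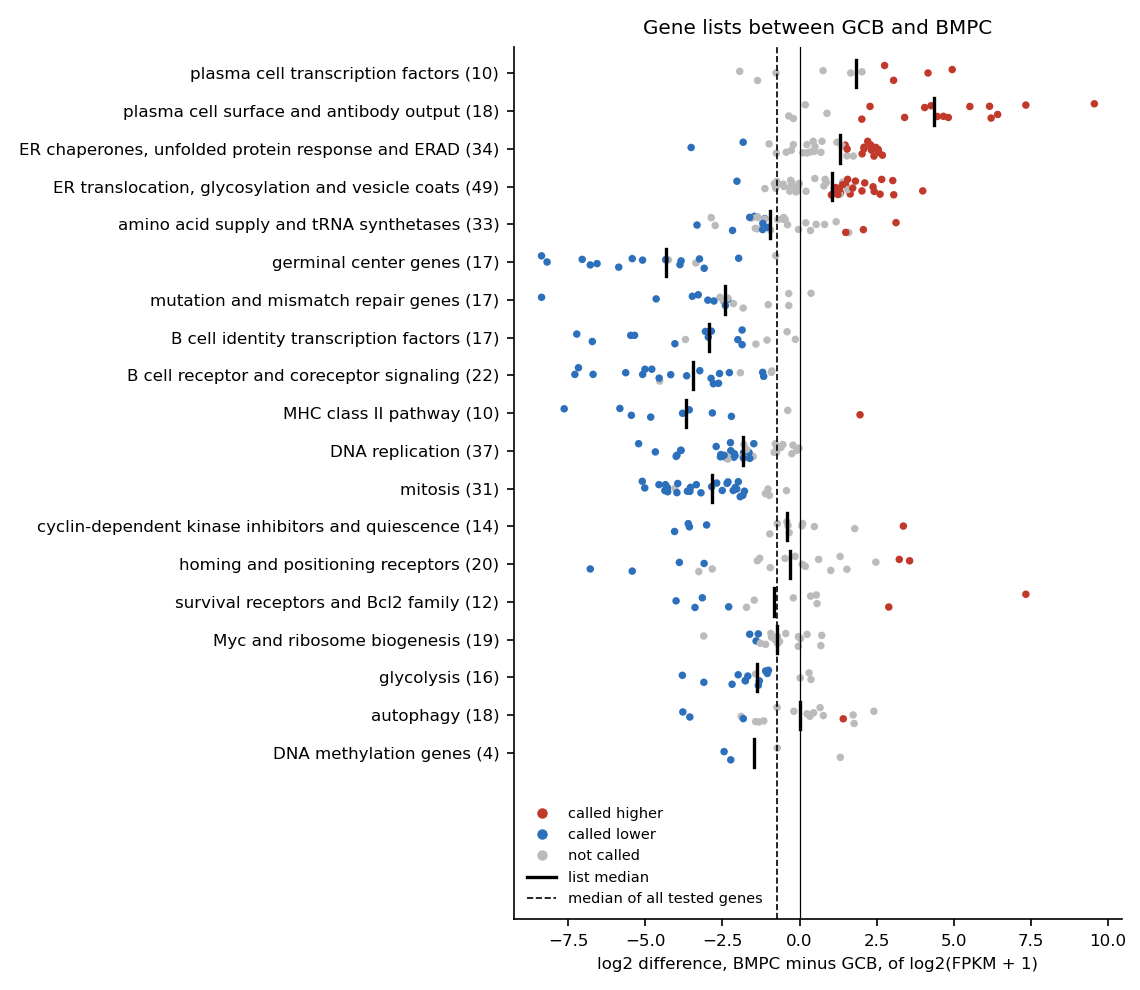
Log2 difference, BMPC minus GCB, of log2(FPKM + 1) on the horizontal axis for each tested member of 19 gene lists (1 row per list, number of tested members in brackets), with 1 point per gene coloured by call, a bar at the list median and a dashed line at the median of all tested genes (-0.75). The plasma cell surface list has the highest median drawn (4.36) and the germinal center list the lowest (-4.34).

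Genes of the germinal center program were lost almost as a block. Of 17 tested genes, none rose and 14 fell, with a median log2 difference of -4.34. Rgs13, a regulator of chemokine receptor signaling, was at 248.6, 304 and 321 FPKM in GCB and at 0 in BMPC, at least 481-fold lower (adjusted p = 0.000159). S1pr2, the receptor that confines cells to the germinal center, was at 95.5, 138 and 98.0 FPKM in GCB and at 0 in BMPC, at least 313-fold lower (log2 difference -6.78 ± 0.43, adjusted p = 0.000301). Gcsam, a signaling adaptor of the germinal center, fell from 297, 272 and 327 FPKM to 10.7, 0 and 0 (log2 difference -7.04 ± 0.96, adjusted p = 0.00321). Bcl6, the master regulator of the germinal center, fell from 30.5, 37.2 and 34.3 FPKM to 0, 0.0800 and 0 (log2 difference -5.09 ± 0.46, adjusted p = 0.00102), and this gene was also present in nB at 17.8 to 37.2 FPKM.

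The genes of the list that did not pass had BMPC values that scattered. Fas, whose protein was used to sort GCB, was at 198, 200 and 198 FPKM in GCB and at 60.4, 0 and 17.8 in BMPC (adjusted p = 0.0616). Ezh2, the methyltransferase of Polycomb repression, was at 49.99, 59.8 and 77.7 FPKM in GCB and at 12.6, 0 and 15.6 in BMPC (adjusted p = 0.0577). The groups did not overlap for either gene, and each was called without BMPC 2. Cd38 was low in both cell types, at 2.92 to 5.15 FPKM in GCB and 0 to 7.30 in BMPC, against 159 to 190 in nB.

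The enzymes that process DNA lesions of mutating antibody genes were lower or not called. Of 17 genes for mutation and mismatch repair, none rose and 8 fell, a count that was 4 without GCB 1 or GCB 2 and 5 without GCB 3. Lig4, the ligase of end joining, fell from 14.7, 11.5 and 11.5 FPKM to 0.781, 0 and 0 (log2 difference -3.47 ± 0.49, adjusted p = 0.00356). The translesion polymerase gene Polh fell from 51.8, 49.2 and 68.2 FPKM to 0, 0 and 10.7 (adjusted p = 0.0155), a call lost without any single GCB library (adjusted p 0.0661 to 0.0727). Xrcc6 (Ku70) was at 37.0, 41.0 and 64.9 FPKM in GCB and at 54.2, 72.7 and 55.2 in BMPC, and Apex1 at 50.5 to 59.5 and 15.8 to 78.4, and neither was called (adjusted p = 0.4 and 0.686).

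Transcription factors that maintain B cell identity fell in 12 of 17 cases, with none higher and a median log2 difference of -2.94. Pax5, which commits cells to the B lineage, was at 18.3, 15.9 and 12.6 FPKM in GCB and at 0 in all 3 BMPC libraries, at least 19.0-fold lower (log2 difference -4.04 ± 0.45, adjusted p = 0.00185). In nB it stood at 47.8 to 55.9 FPKM, so it was highest in nB and listed at 0 in BMPC. Ebf1 followed the same order, falling from 48.9, 47.5 and 42.9 FPKM in GCB to 0, 0 and 0.578 in BMPC, while nB held 94.5 to 137 (adjusted p = 0.000998). Spib, an Ets factor, was at 100.3, 109 and 103 FPKM in GCB and at 0 in BMPC, at least 292-fold lower (adjusted p = 0.000286). Ciita, the coactivator of MHC class II genes, was at 44.2, 49.0 and 37.5 FPKM in GCB and at 0 in BMPC, at least 345-fold lower (adjusted p = 0.000776).

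Id3 fell from 402, 326 and 396 FPKM to 14.8, 0 and 0 (log2 difference -7.22 ± 1.06, adjusted p = 0.00411) and Irf8 from 58.4, 54.3 and 41.8 to 5.33, 5.59 and 4.95 (log2 difference -3.05 ± 0.36, adjusted p = 0.00215). Bach2, a repressor of Prdm1, fell from 15.5, 14.5 and 11.0 FPKM to 1.52, 1.603 and 0 (adjusted p = 0.0112), and this call was lost without GCB 1 or GCB 2 (adjusted p = 0.0582 and 0.055). Ikzf3 (12.5 FPKM on average in BMPC), Mef2c (30.4) and Pou2f2 (0.491) were lower as well and kept the call without any single library. Ikzf1 and Tcf3 were called lower in all 6 libraries together but in none of the comparisons without a GCB library (adjusted p 0.0729 to 0.0807 and 0.112 to 0.145). Of the 5 factors that were not called, Ets1 and Pou2af1 were called lower without BMPC 2, whereas Foxo1, Bcl11a and Spi1 were not called without any library.

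Genes of the B cell receptor complex and its coreceptors fell in 18 of 22 cases, with none higher and a median log2 difference of -3.45. Ms4a1 (CD20) was at 512, 576 and 547 FPKM in GCB and at 2.07, 0 and 13.1 in BMPC (108-fold lower, log2 difference -7.28 ± 0.89, adjusted p = 0.00234). Cd22, an inhibitory coreceptor, was at 146, 129 and 153 FPKM in GCB and at 0 in BMPC, at least 700.1-fold lower (adjusted p = 0.000194). Pik3ap1, an adaptor that recruits PI3 kinase, was at 46.8, 55.6 and 44.2 FPKM in GCB and at 0 in BMPC, at least 215-fold lower (adjusted p = 0.00068). Cd79a, which carries the receptor signal, was at 1143, 1323 and 1333 FPKM in GCB and still at 639, 951 and 510 in BMPC (log2 difference -0.90 ± 0.22, adjusted p = 0.0237), which was under the minimum change unless BMPC 2 was left out. The kinase gene Blk went from 81.1, 92.7 and 94.0 FPKM to 52.1, 0 and 0.111, and BMPC 1 decided its call (adjusted p = 0.0641 with it and 0.00115 without it). Without GCB 2 the number of genes called lower in this list was 11.

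Antigen presentation by MHC class II fell in 8 of 10 genes and rose in 1, with a median log2 difference of -3.68. H2-Aa, an MHC class II chain, fell from 994, 1114 and 1114 FPKM to 37.5, 35.8 and 37.5 (29.1-fold lower, log2 difference -4.82 ± 0.14, adjusted p = 3.66e-05). H2-DMb2, a chain of the peptide exchange factor, fell from 363, 437 and 475 FPKM to 0, 2.44 and 1.86 (adjusted p = 0.000398), although reads may be shared with its close relative H2-DMb1. Cd74, the invariant chain, was the exception among the structural genes, with 5849, 6825 and 6756 FPKM in GCB and 6402, 4890 and 3877 in BMPC (log2 difference -0.38 ± 0.17, adjusted p = 0.141). Ctss, the protease that removes the invariant chain, rose from 264, 254 and 275 FPKM to 1216, 1036 and 869 (3.94-fold, log2 difference 1.96 ± 0.14, adjusted p = 0.000453). Its level in BMPC was close to that in nB (1000 to 1048 FPKM), and GCB was the lowest cell type.

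Genes of the cell cycle were lower in BMPC but mostly still detected. Of 37 genes for DNA replication, none rose and 21 fell, with a median log2 difference of -1.83, and of 31 mitotic genes none rose and 26 fell, with a median of -2.85. Cdc45, which activates the replicative helicase, was at 119, 94.3 and 96.1 FPKM in GCB and at 0, 9.08 and 5.66 in BMPC (log2 difference -4.67 ± 0.86, adjusted p = 0.00872). Rfc1, the large subunit of the clamp loader, was at 89.4, 99.2 and 93.0 FPKM in GCB and at 1.70, 7.53 and 8.08 in BMPC (16.3-fold lower, log2 difference -3.997 ± 0.54, adjusted p = 0.00303). Mcm3 was at 332, 276 and 272 FPKM in GCB and at 42.4, 131 and 53.0 in BMPC (3.89-fold lower, adjusted p = 0.0108). Rrm2, a subunit of ribonucleotide reductase, was at 598, 569 and 527 FPKM in GCB and at 245, 347 and 378 in BMPC, so that its fall was shallower (log2 difference -0.82 ± 0.18, adjusted p = 0.0158, under the minimum change). The sliding clamp gene Pcna was at 500, 468 and 558 FPKM in GCB and at 344, 408 and 300.5 in BMPC and was likewise under the minimum change (log2 difference -0.54 ± 0.15, adjusted p = 0.0345). In nB, Rrm2 was at most 4.26 FPKM and Pcna at most 98.5, so both genes in BMPC stood above nB. Markers of other cells rose in the same BMPC libraries, and the part of such cells in these values was not tested.

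In the mitosis list, Incenp, a subunit of the chromosomal passenger complex, fell from 43.2, 30.1 and 47.2 FPKM to 0, 0.163 and 0.427 (log2 difference -5.10 ± 0.49, adjusted p = 0.00119). Cenpe, a kinetochore motor, fell from 56.0, 48.1 and 42.8 FPKM to 1.81, 0.168 and 0.106 (log2 difference -5.02 ± 0.55, adjusted p = 0.00185). Cdk1, the mitotic kinase, was at 108, 95.1 and 124 FPKM in GCB and at 43.9, 36.2 and 92.2 in BMPC, and BMPC 3, the highest of the BMPC libraries, decided its call (adjusted p = 0.0882 with it and 0.00821 without it). Cenpa, the histone of the centromere, was at 79.1 to 106 FPKM in GCB and ranged from 8.34 to 202 in BMPC (adjusted p = 0.503). The counts of both lists fell when a GCB library was left out, to 9, 10 and 10 genes for replication and to 14, 14 and 15 for mitosis without GCB 1, 2 and 3.

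Motifs known from cell cycle promoters were frequent in both lists. The CHR element TTTGAA was present in 78.57% of the 28 promoter windows found for 26 mitotic genes, against 17.89% of all windows, and the CHR element together with a CCAAT box in 71.43% against 6.953%. An E2F motif, TTTCCCGC or TTTGGCGC, was present in 29.73% of the 37 windows found for 30 replication genes, against 1.565% of all windows, and in none of the mitotic windows. Over all genes called lower the shares were 13.4% for the CHR element and 3.996% for an E2F motif. Among the windows of tested genes, from which the called genes come, they were 12.53% and 3.174%. In the Mki67 window printed above, CHR elements began 116 and 98 bases before the start site and CCAAT boxes 188, 166 and 141 bases before it. In the Mcm3 window both E2F motifs lay after the start site, at bases 20 and 39.

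Inhibitors of the cell cycle were called in both directions. Of 14 tested genes of cyclin-dependent kinase inhibition and quiescence, 1 rose and 4 fell. Over all tested genes 6.48% rose and 19.7% fell, so these few calls set the list little apart. Cdkn1b (p27) was at 1.36, 1.01 and 2.56 FPKM in GCB and at 26.4, 41.5 and 14.8 in BMPC (16.8-fold, log2 difference 3.36 ± 0.57, adjusted p = 0.00665), a range close to that in nB (15.04 to 33.8). Ccng2, a cyclin of arrested cells, fell from 13.7, 11.1 and 16.2 FPKM to 0, 0.103 and 0.538 (log2 difference -3.61 ± 0.47, adjusted p = 0.00287). Cdkn2d (p19) was at 61.7, 59.9 and 68.2 FPKM in GCB and at 1.89, 0 and 19.1 in BMPC (adjusted p = 0.0285), a call that needed every GCB library and BMPC 1 (adjusted p 0.0661 to 0.106 without one of them). The antiproliferative genes Btg1 and Btg2 were not called (adjusted p = 0.148 and 0.82). Without any single GCB library the number of genes called lower in this list was 1.

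Of 20 tested homing and positioning genes, which place the cell in its tissue, 2 rose and 4 fell, counts close to the 6.48% and 19.7% of all tested genes. Cd9, a tetraspanin, rose from 3.20, 6.15 and 5.15 FPKM to 36.3, 60.2 and 66.1 (11.2-fold, log2 difference 3.23 ± 0.44, adjusted p = 0.0031). Cxcr5, the receptor that leads B cells to follicles, fell from 80.4, 116 and 114 FPKM to 3.98, 1.80 and 0 (53.8-fold lower, log2 difference -5.42 ± 0.65, adjusted p = 0.0022). Ccr6 fell from 11.9, 9.69 and 22.8 FPKM to 0 in all 3 BMPC libraries, at least 31.0-fold (adjusted p = 0.00278).

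Among 12 tested survival receptors and Bcl2 family members, 2 rose and 4 fell, beside 6.48% and 19.7% of all tested genes. Besides Tnfrsf17, Bcl2 rose from 0.276, 0.0169 and 0.656 FPKM to 12.7, 5.20 and 9.33 (28.7-fold, log2 difference 2.89 ± 0.51, adjusted p = 0.00742), a call lost without GCB 1 or GCB 2 (adjusted p = 0.0508 and 0.0563). Tnfrsf13c, the receptor of BAFF on mature B cells, fell from 377, 434 and 361 FPKM to 25.5, 52.1 and 35.9 (10.3-fold lower, log2 difference -3.39 ± 0.28, adjusted p = 0.000757). The related receptor gene Tnfrsf13b (TACI) was at 40.5 to 43.4 FPKM in GCB and 37.2 to 95.7 in BMPC and was not called (adjusted p = 0.521). Bid, a proapoptotic member, fell from 161, 156 and 149 FPKM to 19.7, 8.66 and 26.2 (8.53-fold lower, log2 difference -3.15 ± 0.41, adjusted p = 0.0029). Mcl1, on which plasma cells depend, was at 28.2 to 48.0 FPKM in GCB and 45.05 to 79.8 in BMPC and was not called (adjusted p = 0.281).

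Enzymes of glycolysis fell in 12 of 16 cases, with none higher and a median log2 difference of -1.38. Pkm, the gene of pyruvate kinase, fell from 774, 675 and 701.7 FPKM to 158, 77.1 and 45.9 (7.65-fold lower, log2 difference -3.10 ± 0.41, adjusted p = 0.00296). Slc2a1, a glucose transporter, fell from 14.2, 22.4 and 16.0 FPKM to 1.24, 0 and 0 (adjusted p = 0.0041). Without any single GCB library 7 of the genes were called lower.

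Of the genes that write or erase DNA methylation, 4 of 8 passed the filter on low values. Uhrf1, which guides Dnmt1 to newly replicated DNA, fell from 182, 176 and 167 FPKM to 26.9, 28.01 and 40.7 (5.49-fold lower, log2 difference -2.44 ± 0.24, adjusted p = 0.00137). Dnmt1, the maintenance methyltransferase, fell from 63.6, 55.1 and 52.2 FPKM to 13.3, 5.71 and 18.5 (4.55-fold lower, adjusted p = 0.0136), a call lost without any single GCB library (adjusted p 0.0505 to 0.0672). Tet2 (0.932 to 1.65 FPKM in GCB, 1.86 to 16.0 in BMPC) and Tet3 (1.43 to 2.79 and 0.199 to 3.01) were not called (adjusted p = 0.23 and 0.359). Dnmt3a, Dnmt3b, Dnmt3l and Tet1 did not exceed 1 FPKM in 2 of the 6 libraries, so the deleted genes could not be compared between these cell types.

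Outside the lists, the largest falls were led by B cell genes at 0 in BMPC. Scimp, an adaptor of MHC class II signaling, was at 255, 229 and 222 FPKM in GCB and at 0 in BMPC, at least 249.6-fold lower (adjusted p = 0.000159). Siglecg, an inhibitory receptor of B cells, was at 136, 142 and 134 FPKM in GCB and at 0 in BMPC, at least 344-fold lower (adjusted p = 0.000194). Lta, the gene of lymphotoxin alpha, was at 107, 145 and 142 FPKM in GCB and at 0 in BMPC, at least 183-fold lower (adjusted p = 0.000237). Ell3, an elongation factor, Rassf6, Rgs1, Havcr1 and Csrp2 were also at 0 in all 3 BMPC libraries, with bounds from 51.4-fold (Csrp2) to 283-fold (Ell3). Klhl6, a ubiquitin ligase adaptor of germinal center B cells, fell from 793, 822 and 722 FPKM to 6.44, 0 and 34.0 (57.7-fold lower, adjusted p = 0.00629). The remaining falls were Hmces, which protects abasic sites, with a mean of 579 ± 87.9 FPKM (SD, n = 3) in GCB and 6.51 ± 5.83 in BMPC, Neil1, a DNA glycosylase, with 288 ± 15.4 and 6.49 ± 5.62, and Anxa2, an annexin, with 323 ± 21.2 and 4.37 ± 7.56. Across the table, 452 of the 1950 genes called lower were at 0 in all 3 BMPC libraries.

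The largest rises outside the lists included genes of red blood cells. Car1 (chromosome 3, 14766217 to 14778459), a carbonic anhydrase abundant in erythrocytes, was at 0 in all 3 GCB libraries and at 2864, 3446 and 4308 FPKM in BMPC, at least 12230-fold higher (log2 difference 11.77 ± 0.25, adjusted p = 1.12e-05). Rhd, the rhesus antigen gene, was at 0.0705, 0.328 and 0.148 FPKM in GCB and at 334, 182 and 184 in BMPC (log2 difference 7.58 ± 0.42, adjusted p = 0.000194). The beta globin gene Hbb-b1 was at 0, 10.6 and 0.188 FPKM in GCB and at 373, 313 and 699 in BMPC (adjusted p = 0.00269), with reads that may be shared among the beta globins. Cldn13 (at least 447-fold higher, at 0 in GCB) and Tspo2 (151 ± 47.7 FPKM in BMPC, SD, n = 3) belonged to the same group of rises. The metallothionein genes Mt1 and Mt2, which bind metal ions, rose to 349.7 ± 23.9 and 123 ± 2.47 FPKM in BMPC, from 3.10 ± 1.41 and from 0 in all 3 GCB libraries, and their reads may be shared. Gstm5 (212 ± 34.6 FPKM in BMPC, 0 in GCB), Ifitm2 (332 ± 83.6 and 0.421 ± 0.574), Tmem176a (332 ± 32.9 and 1.22 ± 0.691), Tmem176b (433 ± 68.3 and 1.52 ± 1.89) and Tyrobp (143 ± 26.4 and 0.728 ± 1.26) completed the list. Tyrobp, a signaling adaptor of myeloid and NK cells, was also detected in nB at 50.4 to 342 FPKM.

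Markers of other bone marrow cells were therefore counted beside these rises. All 5 tested erythroid markers rose in BMPC, and the erythroid list held 0.649%, 0.585% and 0.938% of the summed FPKM in BMPC 1 to 3 against at most 0.00259% in GCB. Car2, another carbonic anhydrase of red cells, was at 2462, 2158 and 3286 FPKM in BMPC and at 12.2, 8.84 and 3.89 in GCB, and Hba-a2 (alpha globin) was at 424, 517 and 1047 against 0, 0 and 2.4. Of 8 tested early B cell markers, 4 rose and none fell, and the list held 0.134%, 0.132% and 0.140% of the summed FPKM in BMPC against 0.0633%, 0.0676% and 0.0695% in GCB. Dntt, the terminal transferase of B and T cell precursors, was at 329, 330 and 581 FPKM in BMPC and at 0 in all 3 GCB libraries, at least 2437-fold higher (log2 difference 8.64 ± 0.39, adjusted p = 0.000159). Cd34, Il7r and Igll1 were the other members that rose, at 14.6 to 61.0, 7.42 to 31.6 and 10.8 to 14.8 FPKM in BMPC, whereas Vpreb3 was not called (171 to 354 FPKM in BMPC, 308 to 343 in GCB).

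Of 7 tested T and NK cell markers, 5 rose and 1 fell, and the list held 0.0318% to 0.0623% of the summed FPKM in BMPC against 0.0156% to 0.0238% in GCB. Nkg7 was at 86.2, 60.5 and 137 FPKM in BMPC, Cd3g at 24.5, 112 and 95.9, Cd3d at 28.4, 65.4 and 15.5, and Prf1 at 14.7, 25.8 and 20.8, while the kinase gene Lck was higher in GCB (76.1 to 114 FPKM against 18.9 to 53.4) with a call that was lost without any single GCB library or without BMPC 2. Of 7 tested neutrophil markers, 2 rose, and the list held 0.0978%, 0.0141% and 0.0314% of the summed FPKM in BMPC 1 to 3 against at most 9.29e-05% in GCB. S100a8 was at 257, 34.2 and 24.6 FPKM in BMPC and Prtn3 at 22.6, 16.4 and 19.6. All 7 tested neutrophil markers had a positive log2 difference (median 3.68), while the untested Lcn2, Mmp8 and Mmp9 were at 0 in all 3 BMPC libraries. The 2 tested macrophage markers also had a positive log2 difference (median 2.12), and the untested Adgre1, C1qc and Vcam1 were at 0 in BMPC. Of the tested macrophage markers, Cd68 rose to 40.5 to 87.7 FPKM from 13.9 to 18.1 (adjusted p = 0.0218, lost without any single GCB library). None of the listed platelet, dendritic or stromal markers was called, although leaving out 1 BMPC library led to the call of Itga2b (without BMPC 3), Siglech (without BMPC 2) and Cxcl12 (without BMPC 2 or BMPC 3). Without BMPC 2, 7 early B cell markers and 6 neutrophil markers were called higher. The study's staining panels excluded cells carrying CD11b, CD11c, CD90.2 or Ly6-G, and red cells of the bone marrow were lysed before staining. The part of other cells in the rises of Car1, Rhd, the globins, Cldn13, Tspo2, Dntt, Nkg7 and Tyrobp was not tested. Nor was their part in the cell cycle transcripts still detected in BMPC. With the markers of erythroid, early B, T and NK, neutrophil and macrophage cells removed and the libraries rescaled, 2547 genes were called and none of the 161 named genes that remained in the test gained or lost its call. The erythroid list, the largest of these, held a mean of 0.724% of BMPC, so rescaling could shift other genes only slightly. Other transcripts of such cells stayed in, so this setting cannot show their part in the rises.

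**Figure D4:**
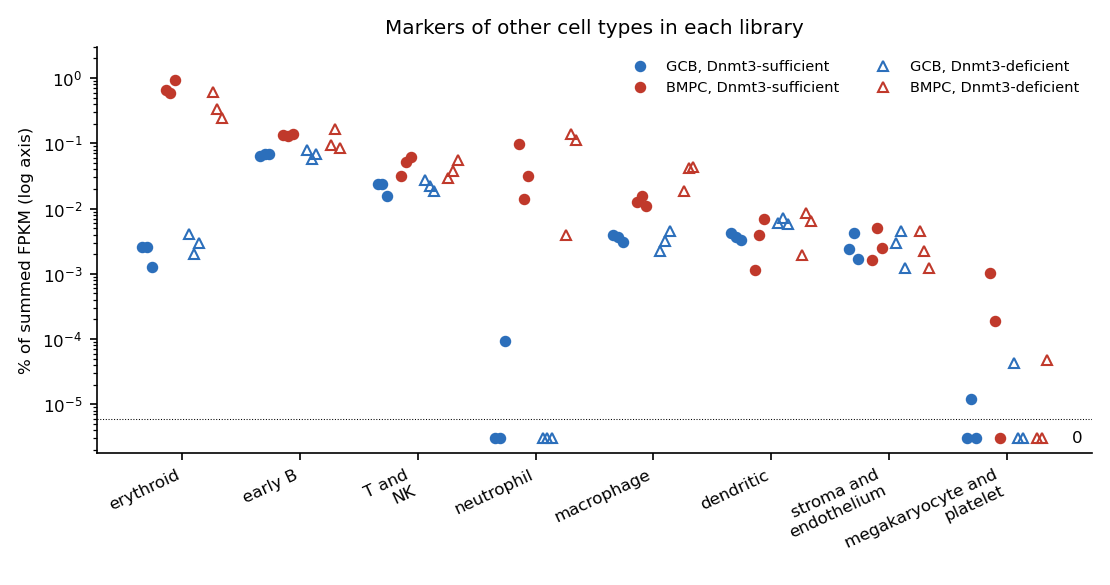
Percent of summed FPKM (log axis, values of 0 drawn under the dotted line) held by 8 lists of other-cell markers in each GCB and BMPC library, with filled circles for Dnmt3-sufficient and open triangles for Dnmt3-deficient mice. The erythroid list reaches 0.585% to 0.938% in the 3 Dnmt3-sufficient BMPC libraries and at most 0.00259% in the 3 Dnmt3-sufficient GCB libraries.

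Counted as shares of the summed FPKM, the secretory program took up much more of a BMPC library. The plasma cell surface and output list held 0.339%, 0.342% and 0.417% of the summed FPKM in GCB and 7.004%, 5.46% and 4.39% in BMPC. Jchain alone made up 4.43%, 3.55% and 2.75% of BMPC, and it was the highest gene of all 3 BMPC libraries, as Cd74 was of all 3 GCB libraries. Immunoglobulin heavy and light chain genes were not used here, so these shares leave out the main product of the cell. The paper reports that immunoglobulin made up far more of the mRNA in BMPC than in GCB. The part left out therefore differs between the cell types, and the shares are not shares of all mRNA. ER chaperones held 0.499% to 0.503% in GCB and 0.831% to 1.14% in BMPC, and ER translocation and coat genes 0.804% to 0.839% and 1.92% to 2.37%. The shares of ER chaperones in nB were 0.557% to 0.627%, above those of GCB.

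The shares that shrank were those of antigen recognition and growth. MHC class II genes went from 2.35%, 2.75% and 2.65% in GCB to 1.42%, 1.15% and 0.854% in BMPC, most of which was Cd74. B cell receptor signaling genes held 0.252% to 0.359% in BMPC, under every GCB library. DNA replication genes went from 1.06% to 1.14% in GCB to 0.310% to 0.402% in BMPC, and mitotic genes from 0.627% to 0.681% to 0.0891% to 0.144%. In nB the mitotic list held 0.00838% to 0.0197%, so BMPC stayed above nB. Glycolysis went from 0.784% to 0.874% in GCB to 0.236% to 0.267% in BMPC. The 10 highest genes of each library together held 5.78%, 6.18% and 6.01% in GCB and 12.3%, 10.3% and 9.24% in BMPC. For each of these lists, the erythroid and early B lists and the 10 highest genes, the 3 GCB and 3 BMPC libraries did not overlap, which gave p = 0.1 in an exact two-sided permutation test, the smallest value that 3 against 3 libraries allow.

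**Figure D5:**
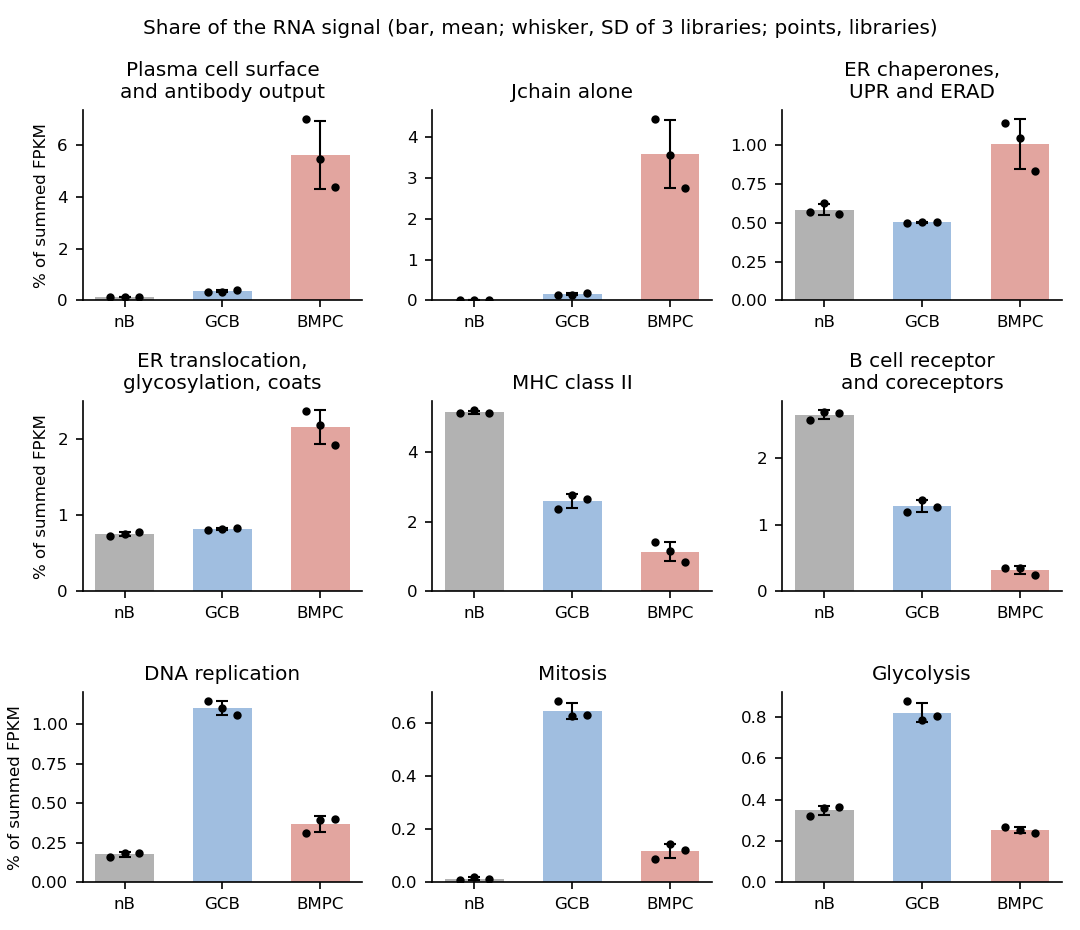
Percent of summed FPKM (vertical axes, starting at 0) held by 8 gene lists and by Jchain alone in Dnmt3-sufficient nB, GCB and BMPC, with bars at the mean of 3 libraries, whiskers of 1 SD and a point per library. The plasma cell output share is 0.339% to 0.417% in GCB and 4.39% to 7.004% in BMPC, and the mitosis share is 0.627% to 0.681% and 0.0891% to 0.144%.

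The same comparison in Dnmt3-deficient mice used other libraries (3 GCB and 3 BMPC) and called 554 of 9861 tested genes higher (5.62%) and 2343 lower (23.8%). Of the 640 genes called higher in Dnmt3-sufficient mice, 357 were called higher in both genotypes, which is 55.78% of the Dnmt3-sufficient calls and 64.44% of the Dnmt3-deficient calls. Of the 1950 genes called lower, 1059 were called in both, 54.31% and 45.2% of the respective calls. In the opposite direction, 2 of the 640 and 0 of the 1950 were called. Of those tested in Dnmt3-deficient mice, 578 of 609 higher and 1817 of 1901 lower genes had the same sign there. Their median log2 difference in Dnmt3-deficient mice was 1.80 and -2.04, against 2.16 and -2.35 in the Dnmt3-sufficient mice whose values picked them. Over all tested genes the Dnmt3-deficient median was -0.96. The difference between the genotypes was tested directly as an interaction over all 12 libraries, in which 13 of 10770 genes were called (0.121%), 9 of them with a more negative change in Dnmt3-deficient mice, and 4 were called with the numbered GCB pairs of the 2 genotypes as a replicate block.

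For the genes that define the cell types, each genotype's own values are given side by side. The log2 difference in Dnmt3-sufficient and Dnmt3-deficient mice was 4.95 and 5.87 for Xbp1, 5.52 and 6.15 for Sdc1, and -2.35 and -2.74 for Mki67. It was -4.04 and -4.35 for Pax5. Prdm1 differed by 2.02 in Dnmt3-sufficient mice and by 4.21 in Dnmt3-deficient mice, and Irf4 by 3.05 and 0.21, with Dnmt3-deficient BMPC at 14.5, 0.315 and 27.9 FPKM of Irf4. Neither gene was called in the interaction test (adjusted p = 0.738 and 0.723). No member of the plasma cell, ER, germinal center, B cell identity or cell cycle lists was among the 13 genes called, whereas Prf1 and Klrd1 of the T and NK cell markers were.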

How the data were processed

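RNA-seq of sorted mouse cells was analysed from the table of genes deposited by the authors. Per the labels and the study's methods, RNA of 5000 cells was amplified for 13 cycles of cDNA synthesis and 12 of library PCR, reads were aligned to mm9 with TopHat 2.1.1 keeping single hits, exon overlaps of UCSC known genes were counted with GenomicAlignments 1.6.3, and the authors converted them to FPKM (Picard, R 3.2.2 and edgeR 3.12.1 are named in the submitters' processing notes). Whether counting used strand is not given in the sources used here, so overlapping and antisense genes are uncertain. Columns of the authors' own comparisons (fold changes and false discovery rates) were not used.

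FPKM times exon length gave whole reads within 0.01 in 100% of values, which recovered the depth of each library. Of 21761 genes (92 without a symbol), those above 1 FPKM in at least 2 of the 6 libraries were tested on log2(FPKM + 1) with limma 3.58.1 (R 4.3.3), an intensity trend and Benjamini-Hochberg adjustment, two-sided, in place of the count model of the study, since FPKM is not a count. The spread came from these 6 libraries only. Genotypes were compared by an interaction term over 12 libraries, and shares of summed FPKM by an exact permutation test. The test was checked on a simulated table with 200 changed genes and the same spread setting for GCB and BMPC. That check does not cover the wider spread of the real BMPC libraries. No pair of replicate libraries agreed within sampling noise (chi-square per degree of freedom 22.32 to 98.76), so all were kept.

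Members and gene lists were chosen with earlier results of these data known. Genes were named by rule, among called genes whose groups did not overlap: the 12 largest rises and falls outside the lists, the markers Xbp1, Sdc1 and Mki67, and in each list up to 4 called members with the largest change, called members against the majority (up to 3) and up to 2 uncalled members of highest mean, with every member of the transcription factor and DNA methylation lists open to naming, and the 3 largest genotype differences in each direction. Jchain, Hsp90b1, Bcl6, Cxcr4, Cd38, Tars, Mcm3, Klrd1, Canx, Creld2, Dnajc3, Pdia6, Ero1lb, Copb1, Sec23a, Sec24d, Ubb and the other genes of highest level (Rpl32, Rps14, Ptma, H2-Ab1) fall outside the rule and were named after their values were seen. The same holds for the untested genes Lcn2, Mmp8, Mmp9, Adgre1, C1qc and Vcam1. Coordinates on mm9 are from GENCODE vM1, and promoters, for 7933 of the 9875 tested genes, from RefSeq. Alternatives covered the pseudocount, the filter, scaling, thresholds, weights, sex, the spread over 18 libraries, voom on recovered reads and leaving out each library. Rescaling without other-cell markers was added after the data had been seen. The check of ER retention signals in proteins was not run here. Some genes are not reported here.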

Additional observations from a re-analysis of the deposited data

Results flagged for a closer look

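The change from GCB to BMPC differed between the genotypes, by the interaction test over 12 libraries, in 13 genes, a count of 4 with the numbered GCB pairs as a replicate block or with a quality weight per library, and the 3 largest in each direction are given here with the log2 difference of Dnmt3-deficient minus Dnmt3-sufficient changes. AB124611 (interaction 4.59, adjusted p = 0.0124) was at 24.9, 28.4 and 29.2 FPKM in Dnmt3-sufficient GCB and at 0 in all 3 Dnmt3-sufficient BMPC libraries, whereas in Dnmt3-deficient BMPC it stood at 23.5 to 28.1. Zfp472, a zinc finger gene (interaction 4.35, adjusted p = 0.024), showed the same pattern, with 24.6, 16.9 and 13.1 FPKM in GCB and 0.195, 0 and 0 in BMPC of Dnmt3-sufficient mice and 22.9 to 34.7 in Dnmt3-deficient BMPC. Rnase2a, an eosinophil-type ribonuclease (interaction 4.54, adjusted p = 0.00378), was at 17.8, 26.7 and 23.0 FPKM in Dnmt3-deficient BMPC and at 0 in the other 9 libraries of the test.

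In the other direction, Nupr1, a stress-response factor (interaction -4.98, adjusted p = 0.00378), was at 0 in Dnmt3-sufficient GCB and at 24.7, 39.9 and 28.6 FPKM in Dnmt3-sufficient BMPC, but at 0 in all Dnmt3-deficient GCB and BMPC libraries. Nudt9, an ADP-ribose hydrolase (interaction -5.55, adjusted p = 0.0136), rose from 21.4, 12.7 and 9.39 to 41.3, 62.1 and 56.6 FPKM in Dnmt3-sufficient mice and was at 1.38, 0 and 0 in Dnmt3-deficient BMPC. Snord49a, a small nucleolar RNA (interaction -6.26, adjusted p = 0.0193), was at 29.4, 42.4 and 138 FPKM in Dnmt3-sufficient BMPC and at 0 in Dnmt3-deficient BMPC. It is a short RNA, and its Dnmt3-sufficient BMPC values rested on 4, 10 and 31 reads. The Dnmt3-deficient BMPC libraries held 1355231 to 2265945 reads and the Dnmt3-sufficient ones 2196198 to 3803197, and the part of depth in these differences was not tested. Rnase2a and Nupr1 kept their calls under the block (adjusted p = 0.0347 for both), whereas AB124611, Zfp472, Snord49a and Nudt9 lost theirs (adjusted p = 0.083, 0.149, 0.104 and 0.128), and the same 4 genes lost them with a quality weight per library and without GCB 2 or GCB 3. Without GCB 1, Nudt9 stayed called and the other 3 did not. Nudt9 was also lost with a pseudocount of 0.1 (adjusted p = 0.0598) and Snord49a with voom on recovered reads (adjusted p = 0.235).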

How the results depend on the processing

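Of 183 named genes, 126 were called and none of these changed sign in a setting in which it was tested, whereas 11 uncalled genes did. Of the 126, 100 kept the call in each leave-one-out test and 97 in each other setting, where they were tested (152 of the 183 were tested in all). The number of called genes was 1285 (389 higher, 896 lower) at an adjusted p of 0.01 and between 2093 and 3312 under the other settings of pseudocount, filter, scaling, weights and spread. With sex as a covariate it was 2264 (575 higher, 1689 lower), and 5 named calls were lost and 3 gained. Leaving out BMPC 2 or GCB 3 also leaves that cell type with a single sex. Leaving out 1 library gave 1637 to 3259 called genes, 425 to 831 higher and 1212 to 2455 lower, the fewest without GCB 1 (1637, and 1690 without GCB 2) and the most without BMPC 3 (3259). Rescaling without the markers of other cells, an alternative chosen after seeing the data, gave 2547 and changed no call among the 161 named genes that it left in the test. It took out the listed markers only, so it bears on the scaling and not on other transcripts of those cells. Of the 26 called genes lost without some library, 19 were lost only without a GCB library. Leaving out a library of either cell type leaves fewer for the spread, and why these losses lay with GCB was not tested. Of 57 uncalled genes, 23 were called in at least 1 leave-one-out setting. The interaction test called 13 genes and 20 with the median of ratios, 4 with a quality weight per library, 39 with voom on recovered reads, 57 with all 18 libraries and 5 to 49 without 1 library (6, 5 and 7 without GCB 1 to 3, and 49, 49 and 44 without BMPC 1 to 3). The cause of these shifts was not tested. Among shares of RNA, given as BMPC minus GCB in percentage points, plasma cell output went from 5.25 to 1.90 without Jchain and the 10 highest genes from 4.60 to 1.91. Counted on reads, not per length, the 10 highest genes gave 12.6, ER chaperones 0.867 (0.504 per length), MHC class II -1.03 (-1.44), B cell receptor genes -1.16 (-0.957), DNA replication -0.952 (-0.731), mitosis -0.885 (-0.527) and early B markers 0.111 (0.0682, or 0.0731 without Jchain), since long transcripts weigh more on this scale. No paired analysis was possible because GCB and BMPC libraries share no mouse or replicate number in their labels, and in the interaction test a replicate block over the numbered GCB pairs left 4 calls. The shallow BMPC libraries limit what can be said of genes near 1 FPKM.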

Other observations

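Of 19 genes of the Myc and ribosome biogenesis list, none rose and 3 fell (1 fell without GCB 1 and 8 without BMPC 2, and 1 rose without BMPC 1), with a median log2 difference of -0.72 against -0.75 over all tested genes. Dkc1, the pseudouridine synthase of ribosomal RNA, fell from 172, 141 and 151 FPKM to 68.1, 45.1 and 39.8 (log2 difference -1.61 ± 0.26, adjusted p = 0.0056). Npm1 (nucleophosmin) was at 1364, 1261 and 1375 FPKM in GCB and 2034, 1861 and 2628 in BMPC, with groups that did not overlap and a log2 difference of 0.69 ± 0.13 under the minimum change (adjusted p = 0.00923). The share of the whole list in the summed FPKM overlapped between GCB (0.588% to 0.619%) and BMPC (0.520% to 0.673%).

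Autophagy genes, which plasma cells are known to use, were called about as often as tested genes in general. Of 18 tested genes, 1 rose and 3 fell, counts close to the 6.48% and 19.7% of all tested genes. The median log2 difference was 0.03, against -0.75 over all tested genes. Map1lc3b (LC3B), which coats the autophagosome, rose from 239, 273 and 249.7 FPKM to 783, 712 and 559 (2.70-fold, log2 difference 1.42 ± 0.15, adjusted p = 0.00175). Tfeb, the transcription factor of lysosome genes, fell from 8.87, 12.0 and 19.3 FPKM to 0 in all 3 BMPC libraries, at least 40.3-fold (adjusted p = 0.00262), and Atg7, the activating enzyme of the pathway, fell from 11.5, 9.55 and 14.2 to 0, 0.233 and 0 (adjusted p = 0.00248). Without BMPC 2, 3 genes of the list were called higher, and without BMPC 3, 5 were called lower.

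The ubiquitin gene Ubb, singled out after its values were seen, ranked second in all 6 libraries, at 3148, 3275 and 3147 FPKM in GCB and 7512, 5931 and 6261 in BMPC (2.06-fold, log2 difference 1.03 ± 0.09, adjusted p = 0.000774). Ribosomal protein genes such as Rpl32 and Rps14 were among the 10 highest genes of every BMPC library and of no GCB library, whose places were held by actins, Ptma and H2-Ab1. The transcripts of sex-linked genes matched the labelled sex in all 6 libraries.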
